A study of Mus musculus with 4 samples.

Results

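The vacuolar-type proton pump (V-ATPase), the ion channels and transporters of the lysosomal membrane, and the MiT/TFE transcription factors were examined in CD45+ cells of the epididymal white adipose tissue (eWAT) of mice fed a normal diet (ND) or a high-fat diet (HFD). The genes were chosen by name, with earlier results of these data known. They were 20 subunits of the V-ATPase, 2 accessory proteins of the pump, 9 channels, exchangers and transporters, and the factors Mitf, Tfeb and Tfe3. All 34 were among the 35869 genes listed. The study used male C57BL/6 mice in which both diets began at 8 weeks of age and lasted 12 weeks. The ND group was the control, and each diet was represented by 2 libraries. The sample labels name only the diet, and the study's supplement describes the animals behind this comparison as wild type (WT). The siglec-E knockout mice that the study also used are not part of it. Immune cells were taken from the stromal vascular cells of the pad with CD45 microbeads, and the number of mice behind each library is not stated. The p-values therefore measure the spread between these samples, which may be technical.

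The V-ATPase pumps protons into lysosomes and endosomes at the cost of ATP. Its V1 sector faces the cytosol and splits ATP, while its V0 sector lies in the membrane and conducts the protons. Several subunits have paralogs, called isoforms here, that are used in different cell types. In osteoclasts, the bone-resorbing relatives of macrophages, isoforms a3 (Tcirg1) and d2 (Atp6v0d2) belong to the pumps that acidify the bone surface, together with the chloride-proton exchanger Clcn7. Cation channels of the lysosome release calcium, sodium or potassium, or let protons out. TFEB, TFE3 and MITF bind short elements containing CACGTG in the promoters of lysosomal genes, known as CLEAR elements, and thereby link the state of the lysosome to its gene expression.

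Expression was given as TPM, transcript levels in which each count is divided by the length of the gene and each library is scaled to the same total. HFD and ND were compared with limma on the log2(TPM + 1) scale over 16849 genes with at least 1 TPM in at least 2 libraries. Genes that changed by 1.5-fold or more with a p-value, adjusted by Benjamini-Hochberg, below 0.05 were called differentially expressed genes (DEGs). The low values of microRNA genes placed the depth at approximately 37600000 to 46900000 counted reads per library. Ptprc, the gene of CD45, lay between 53.7 and 59.4 TPM in the 4 libraries, and macrophage genes were abundant in each. Transcripts of other tissues differed between libraries. The summed level of 6 spermatid genes was 6577 TPM in HFD replicate 1 and 1757 to 2023 TPM in the other libraries, and that of 7 fibroblast genes was 594 and 638 TPM in ND and reached 3032 and 6064 TPM in HFD replicates 1 and 2. Conversely, 5 genes of the epididymal epithelium summed to 168 and 181 TPM in ND and to 13.9 and 32.1 TPM in HFD. Of the 5, 4 were lower DEGs, where 10.3% of all genes tested were. Lcn5 among these would not have passed the filter on its HFD values. The part of these tissues in the results was not tested.

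Many genes of the proton pump and its partners were expressed at higher levels in HFD. Of the 34 genes, 32 were tested, and 14 of these (43.8%) were DEGs with higher expression in HFD. Of all genes tested, 8.08% were higher DEGs and 18.4% were DEGs in either direction. The genes were chosen with earlier results of these data known, so the shares in this paragraph are a description and not a test. The 14 were the pump subunits Atp6v0d2, Atp6v1a, Atp6v1c1, Atp6v1b2, Atp6v0a1, Tcirg1, Atp6v1h, Atp6v1e1, Atp6v1d and Atp6v1g1, the exchanger pair Clcn7 and Ostm1, the channel gene Tpcn2, and Mitf. As DEGs with lower expression limma called 0 of the 32, where 10.3% of all genes tested were lower DEGs, and at an unadjusted p-value under 0.05, 23 of the 32 were higher and 3 lower, where the shares over all genes were 21.4% and 21.0%. Both HFD values lay above both ND values in 25 of the 32 and below them in 5, where the shares over all genes were 34.1% and 32.8%, or 66.9% in all. A larger share of cells with much pump RNA and more pump RNA per cell cannot be told apart in bulk samples. The median log2 fold change was 0.52 over the 32 genes and 0.06 over all genes tested. Of the 32, 31 had at least 1 TPM in all 4 libraries, so that the filter did not select them by diet. The exception was Atp6v1b1, and Atp6v1c2 and Mcoln3 were not tested. The calls needed both ND libraries. With ND replicate 1 or ND replicate 2 left out, the spread rests on the HFD pair alone, and 0 of all genes tested were DEGs in limma, while 20 of the 32 genes were higher at an unadjusted p-value under 0.05 in each case, where 10.3% and 12.4% of all genes were. Without HFD replicate 1, 13 of the 32 were higher DEGs, where 8.07% of all genes were. Without HFD replicate 2, 12 of the 32 were, and the share over all genes was then 15.7%.

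**Figure D1:**
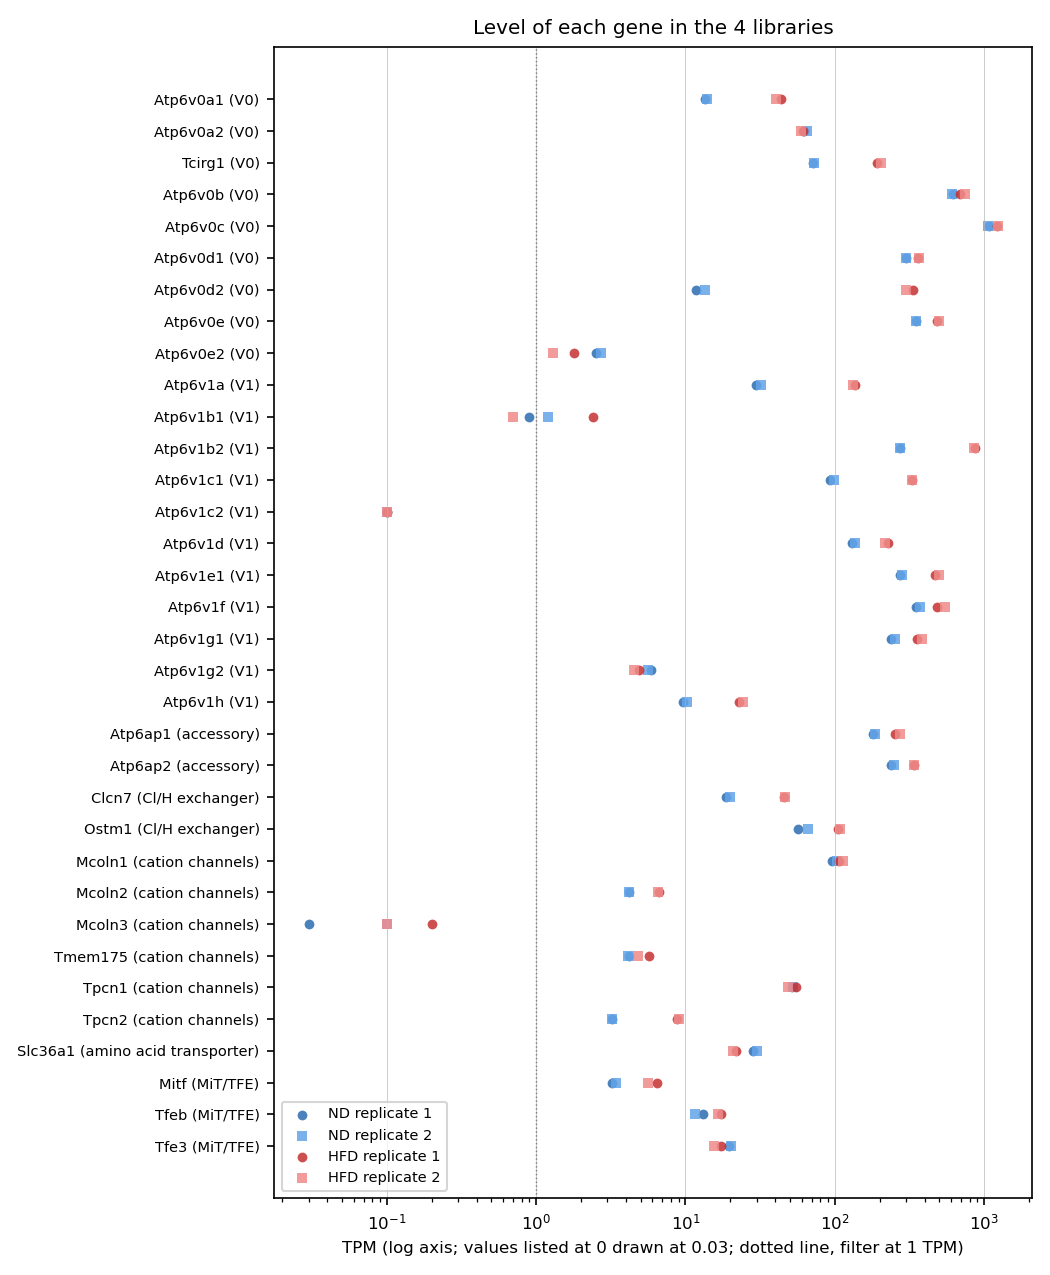
TPM of each of the 34 genes in the 4 libraries, on a log axis, with circles for replicate 1 and squares for replicate 2 of ND (blue) and HFD (red). Levels ran from 0.2 TPM or less for Mcoln3 and 0.1 TPM for Atp6v1c2 to 1053.8 TPM or more for Atp6v0c, and the widest gap between the diets was that of Atp6v0d2.

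Together the 34 genes held 4618 and 4703 TPM in the ND libraries and 7271 and 7433 TPM in the HFD libraries, which is 0.462% and 0.470% of all TPM in ND and 0.727% and 0.743% in HFD. The 9 subunits of V0 summed to 2499 and 2483 TPM in ND and to 3377 and 3438 TPM in HFD, a ratio of the means of 1.37 ± 0.0183 (SD carried over from the replicates, n = 2 each). The 11 subunits of V1 summed to 1405 and 1468 TPM in ND and to 2908 and 2987 TPM in HFD, a ratio of 2.05 ± 0.0737 (SD, n = 2 each). The sectors thus differed in their ratios, and V1 transcripts stood at 0.562 and 0.591 of the V0 sum in ND and at 0.861 and 0.869 of it in HFD. Without Atp6v0d2, the ratio of V0 was 1.25. Sums weigh the abundant subunits most and were not tested. The authors removed duplicate reads, which can lower the values of abundant short genes, and the part of this in the ratios was not tested.

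The 3 DEGs of the V0 sector were isoforms of subunits a and d. Atp6v0d2 encodes the d2 isoform of the subunit that joins the central stalk to the membrane ring, and it lies on the minus strand of mm10 at chr4:19876841-19922605, with 9 exon blocks in GENCODE vM21. It had 11.7 and 13.6 TPM in ND against 331.2 and 298.2 TPM in HFD, approximately 453 and 609 reads against 14556 and 11391. Every HFD value thus lay far above every ND value. The log2 fold change was 4.53 (limma, standard error 0.11, adjusted p = 0.00378), and by this value Atp6v0d2 ranked 5 among all genes tested. Its paralog Atp6v0d1, the d1 isoform found in most cells (chr8:105524465-105566047, minus strand), had 298.8 and 297.5 TPM in ND against 362.4 and 366.1 TPM in HFD. The diets did not overlap, but the log2 fold change of 0.29 (limma, standard error 0.03, adjusted p = 0.0168) stayed under 1.5-fold. Atp6v0d2 was therefore at 0.0392 and 0.0457 of the level of Atp6v0d1 in ND and at 0.914 and 0.815 of it in HFD. As a share of the TPM of both isoforms, d2 went from 4.07 ± 0.427% in ND to 46.3 ± 2.02% in HFD (SD, n = 2 each), a difference of 42.3 percentage points. Scaling a library by 1 common factor leaves such shares as they are.

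Subunit a anchors the proton channel and has different isoforms in different membranes. Tcirg1 (a3, chr19:3896050-3907133, minus strand), the isoform of osteoclasts and of lysosomes in macrophages, had 71.9 and 72.1 TPM in ND against 192.8 and 203.1 TPM in HFD. Its log2 fold change was 1.45 (limma, standard error 0.05, adjusted p = 0.00447). Atp6v0a1 (a1, chr11:101009452-101063719, plus strand) had 13.6 and 14.0 TPM in ND against 43.3 and 40.1 TPM in HFD, and its log2 fold change was 1.53 (limma, standard error 0.07, adjusted p = 0.00529). Both genes rose, and neither overlapped between the diets, where 34.1% of all genes tested had both HFD values above both ND values. Atp6v0a2 (a2, chr5:124628576-124724455, plus strand), known from the Golgi and endosomes, had 62.2 and 65.3 TPM in ND against 60.8 and 59.7 TPM in HFD. Its HFD values were slightly below its ND values, and its log2 fold change of -0.08 (adjusted p = 0.328 in limma) did not pass the test. The share of a2 in the 3 isoforms was 42.6 ± 0.720% in ND and 20.1 ± 0.544% in HFD, while that of a3 was 48.2 ± 0.748% in ND and 66.0 ± 1.49% in HFD (SD, n = 2 each). The share of a1 was 9.23 ± 0.0277% in ND and 13.9 ± 0.951% in HFD. The a4 isoform, Atp6v0a4 of proton-secreting epithelia, was at 1.3 TPM or less in each library.

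The subunits that form the proton-conducting ring were the most abundant transcripts of the pump in ND, while in HFD Atp6v1b2 lay above Atp6v0b, and no change in the ring subunits reached 1.5-fold. Atp6v0c (subunit c) had 1075.6 and 1053.8 TPM in ND against 1212.7 and 1229.0 TPM in HFD, a log2 fold change of 0.20 (adjusted p = 0.0310 in limma). Atp6v0b (subunit c″) had 615.3 and 612.7 TPM in ND against 686.9 and 742.6 TPM in HFD, a log2 fold change of 0.22 (adjusted p = 0.0647 in limma). For both genes the HFD values lay above the ND values, as they did in 34.1% of all genes tested. Atp6v0e, a small membrane subunit, had 347.6 and 351.3 TPM in ND against 485.4 and 497.8 TPM in HFD (0.49 on the log2 scale, limma adjusted p = 0.00848). Its paralog Atp6v0e2 lay between 1.3 and 2.7 TPM, at 0.738% of the pair in ND and 0.315% in HFD. The log2 fold change of Atp6v0e2 was -0.50 (adjusted p = 0.0912 in limma), and without HFD replicate 1 it was -0.65 with an adjusted p of 0.0498, the one call of a lower gene among the 34 that any fit with a fold limit gave.

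**Figure D2:**
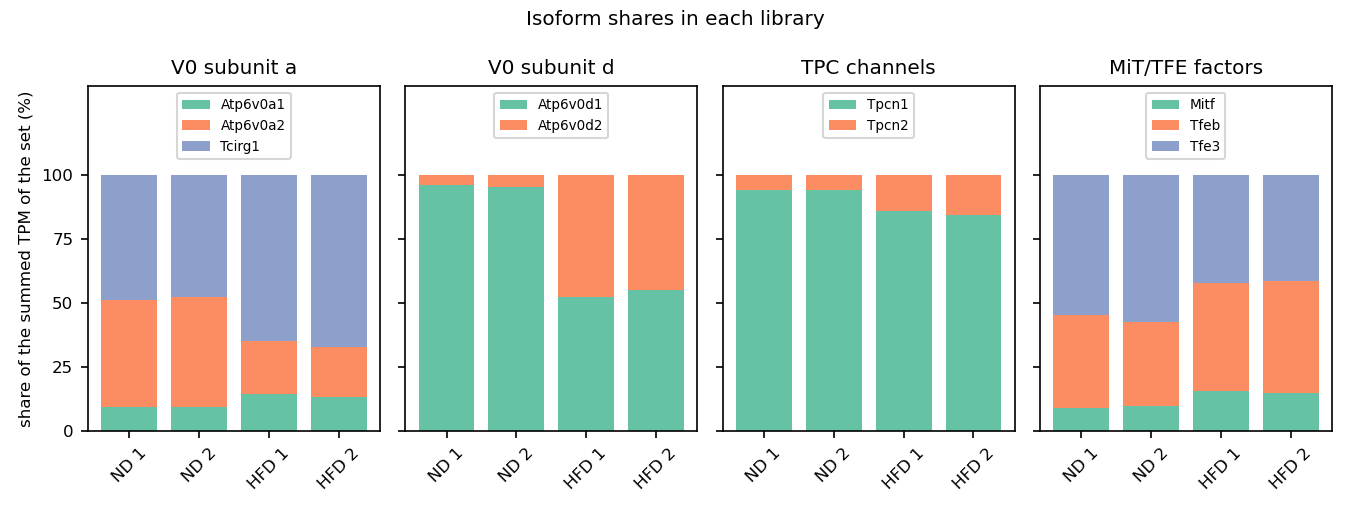
Share of each isoform in the summed TPM of its set, in percent, for subunit a, subunit d, the TPC channels and the MiT/TFE factors, 1 bar per library. The d2 share was 3.77% and 4.37% in the ND libraries and 47.8% and 44.9% in the HFD libraries, and the replicates of a diet lay close together in each set.

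In the V1 sector 7 of the 10 subunits tested rose as DEGs, where 8.08% of all genes were higher DEGs, and 8 of the 10 had both HFD values above both ND values, where 34.1% of all genes did. The catalytic head consists of subunits A and B, which bind the ATP. Atp6v1a (A, chr16:44085402-44139705, minus strand) had 29.5 and 32.0 TPM in ND against 137.5 and 133.0 TPM in HFD, which corresponds to approximately 2540 and 3186 reads against 13447 and 11306. Its log2 fold change of 2.10 (limma, standard error 0.06, adjusted p = 0.00415) was the largest after that of Atp6v0d2 among the 32 genes tested. Atp6v1b2 (B2, chr8:69088646-69113711, plus strand), the B isoform of macrophages and most other cells, had 274.7 and 273.5 TPM in ND against 872.7 and 848.9 TPM in HFD, a log2 fold change of 1.65 (limma, standard error 0.03, adjusted p = 0.00378). Both subunits rose in both HFD libraries, and the ratio of the B2 level to the A level, 9.31 and 8.55 in ND, was 6.35 and 6.38 in HFD.

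The kidney and epididymal isoform Atp6v1b1 (B1) was at 0.9 and 1.2 TPM in the ND libraries and at 2.4 and 0.7 TPM in HFD replicates 1 and 2, approximately 43 to 170 reads. Its values overlapped between the diets (0.23 on the log2 scale, limma adjusted p = 0.703), and it was the gene among the 32 that differed most between the HFD libraries. When HFD replicate 1 was left out its log2 fold change was -0.27, and when HFD replicate 2 was left out it was 0.73. Spermatid genes were also highest in HFD replicate 1, and so was Atp6v1e2, the testis isoform of subunit E, at 26.0 TPM against 7.2 to 11.0 TPM in the other libraries. The part of germ cell transcripts in the value of Atp6v1b1 was not tested. Markers of the epididymal clear cell, a proton-secreting epithelial cell that uses Atp6v1b1, were low. The 5 markers summed to 2.9 TPM in each ND library and to 0.9 and 1.4 TPM in HFD, with Slc4a9 and Slc26a4 listed at 0 in all 4 libraries. Foxi1, a transcription factor of proton-secreting cells, was the 1 marker of the 5 that was tested. It had 1.3 TPM in both ND libraries and 0.1 TPM in both HFD libraries. It was a lower DEG, where 10.3% of all genes tested were. Because it passed the filter through its ND values alone, a call could only be in that direction.

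The stalk subunits changed by different amounts. Atp6v1c1 (C1, chr15:38661933-38692446, plus strand), which links V1 to V0 and leaves the complex when the pump disassembles, had 93.5 and 98.2 TPM in ND against 327.2 and 329.8 TPM in HFD. The log2 fold change was 1.77 (limma, standard error 0.04, adjusted p = 0.00387). Atp6v1h (H, chr1:5070018-5162529, plus strand), a regulatory subunit needed for activity of the assembled pump, had 9.6 and 10.2 TPM in ND against 22.8 and 24.3 TPM in HFD, a log2 fold change of 1.17 (limma, standard error 0.08, adjusted p = 0.00748). It was the least abundant V1 subunit without a paralog. The gene Rgs20 shares 127 exon bases with it on the opposite strand and was at 0.1 TPM or less in each library.

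Subunits E, G and D of the stalks rose by smaller amounts. Atp6v1e1 had 274.1 and 281.6 TPM in ND against 471.9 and 497.3 TPM in HFD (0.80 on the log2 scale, limma adjusted p = 0.00633), and Atp6v1d, the rotating stalk, had 129.5 and 137.3 TPM in ND against 225.6 and 215.7 TPM in HFD (0.72, adjusted p = 0.00892 in limma). Atp6v1g1, at 236.5 and 254.4 TPM in ND against 357.2 and 382.8 TPM in HFD, was just inside the fold limit (0.59, adjusted p = 0.0155 in limma). Atp6v1f, at 351.1 and 373.4 TPM in ND against 486.1 and 549.9 TPM in HFD, was just outside it (0.51, adjusted p = 0.0303 in limma). The call of Atp6v1g1 was lost under each of the 3 other scalings, where its log2 fold change was 0.43 to 0.57, without HFD replicate 1 (0.64, adjusted p = 0.0532) or HFD replicate 2 (0.54, adjusted p = 0.0525), and with a pseudocount of 5 (0.58). Atp6v1f became a DEG without HFD replicate 1 (0.60, adjusted p = 0.0493 in limma). The call of Atp6v1d was lost with quantile normalization (0.58). The neuronal isoform Atp6v1g2 lay between 4.5 and 5.9 TPM and was 0.24 lower on the log2 scale of TPM + 1 (-0.24 on the log2 scale, limma adjusted p = 0.148). It shares 144 exon bases with Nfkbil1 on the opposite strand, and whether strand was used in counting is not given in the sources. Exon bases are also shared with opposite-strand genes in Atp6v0a2 (663 bases), Ostm1 (410), Atp6v0b (243), Atp6v1c2 (50) and Atp6v1e1 (32). Atp6v1c2, an epithelial isoform of subunit C, was listed at 0.1 TPM in all 4 libraries, which is 3 or 4 reads.

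The 2 accessory proteins, which help the pump to fold and assemble, moved alike. Atp6ap1 had 179.8 and 185.6 TPM in ND against 252.8 and 271.4 TPM in HFD, and Atp6ap2, also called the prorenin receptor, had 236.2 and 248.7 TPM in ND against 337.0 and 340.4 TPM in HFD. The log2 fold changes were 0.52 (adjusted p = 0.0147 in limma) and 0.48 (adjusted p = 0.0117 in limma), so that both passed the p-value limit and missed 1.5-fold. With the p-value limit alone, 21 of the 32 genes were higher in HFD and 1, Slc36a1, was lower, where 13.2% and 14.1% of all genes tested were.

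**Figure D3:**
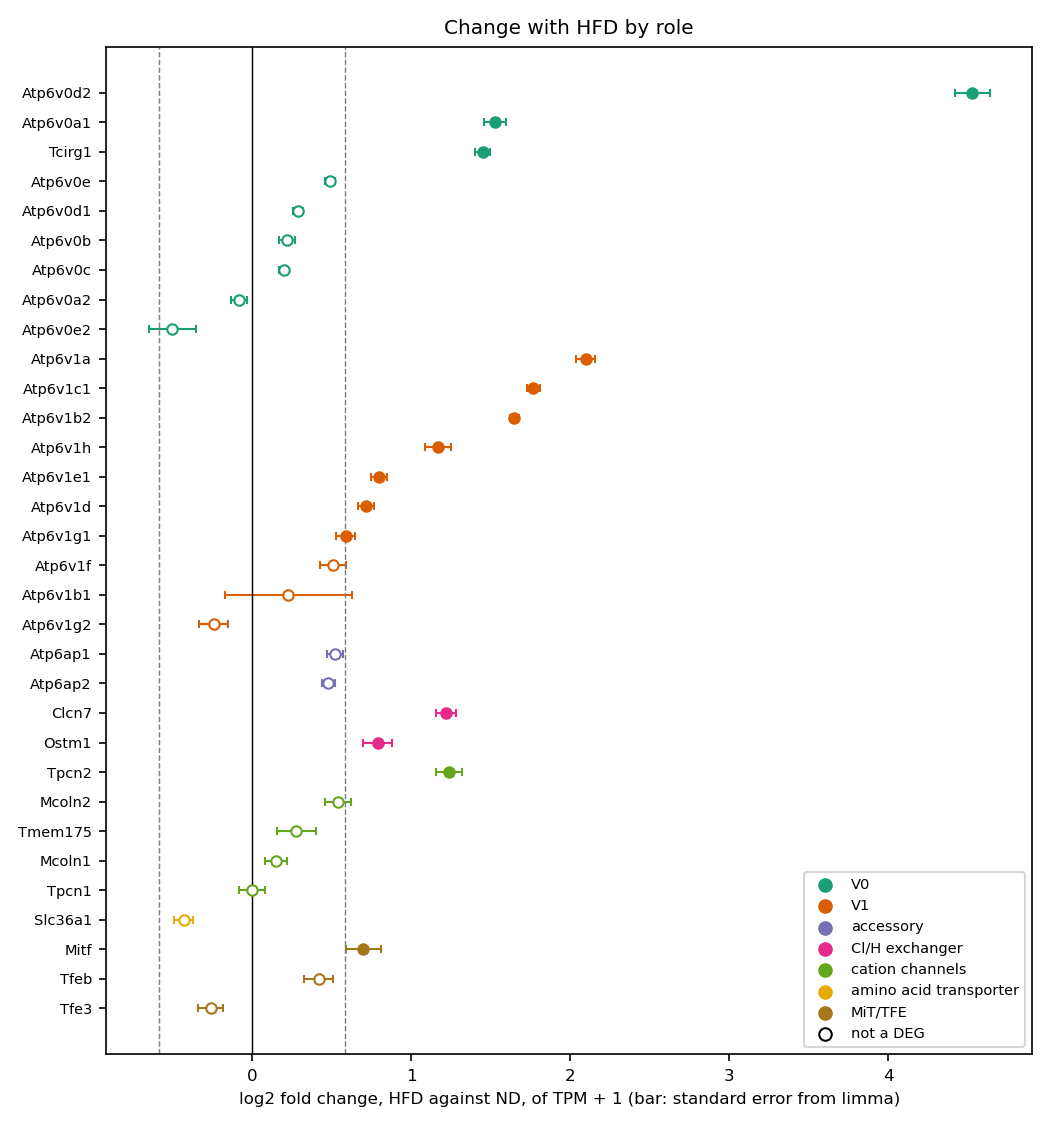
Log2 fold change of TPM + 1, HFD against ND, for the 32 genes tested, ordered within each role, with standard errors from limma as bars and the 1.5-fold limits as dashed lines. Filled points are DEGs, all on the side of higher expression, from 0.59 for Atp6v1g1 to 4.53 for Atp6v0d2.

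Among the channels and transporters, the chloride-proton exchanger and 1 TPC channel, Tpcn2, rose. Clcn7 (chr17:25133391-25162104, plus strand) encodes ClC-7, which exchanges chloride for protons across the lysosomal membrane, and had 18.7 and 20.0 TPM in ND against 45.9 and 46.7 TPM in HFD. Its log2 fold change was 1.22 (limma, standard error 0.06, adjusted p = 0.00571). Ostm1 (chr10:42583822-42702459, plus strand), the partner that ClC-7 needs for stability, had 56.7 and 65.9 TPM in ND against 104.5 and 107.8 TPM in HFD, a log2 fold change of 0.79 (limma, standard error 0.09, adjusted p = 0.0178). Both partners were higher in both HFD libraries, and Clcn7 stood at 0.330 and 0.303 of the level of Ostm1 in ND and at 0.439 and 0.433 of it in HFD. The call of Ostm1 was lost without HFD replicate 1 (adjusted p = 0.0801) or HFD replicate 2 (adjusted p = 0.0744), at log2 fold changes of 0.81 and 0.76 in limma.

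The TPC channels release sodium and calcium from endosomes and lysosomes. Tpcn2 (chr7:145186524-145284011, minus strand), whose product sits mainly on late endosomes and lysosomes, had 3.2 TPM in both ND libraries and 8.8 and 9.1 TPM in HFD. Its log2 fold change was 1.24 (limma, standard error 0.08, adjusted p = 0.00759). With a pseudocount of 5 it was 0.77 and still a call. Tpcn1, found on earlier endosomes too, had 51.3 and 52.2 TPM in ND against 54.9 and 48.9 TPM in HFD. Its values overlapped between the diets, with a log2 fold change of 0.00 (adjusted p = 0.990 in limma) that turned to -0.12 to -0.02 under the other scalings. Tpcn1 stayed the main isoform, and the share of Tpcn2 was 5.82 ± 0.0674% in ND and 14.8 ± 1.33% in HFD (SD, n = 2 each).

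The mucolipins are calcium channels of the endosomes and lysosomes. Mcoln1, their main gene here, had 95.2 and 103.0 TPM in ND against 106.2 and 113.7 TPM in HFD, and its log2 fold change of 0.15 (adjusted p = 0.207 in limma) did not pass the test. Mcoln2 had 4.2 TPM in both ND libraries and 6.6 and 6.5 TPM in HFD. The ratio of its means was 1.56, while the log2 fold change of TPM + 1 was 0.54 (adjusted p = 0.0265 in limma), under the limit, and with a pseudocount of 0.1 it was 0.63 and a call. Mcoln2 is also a gene of lymphocytes. The 5 B cell markers listed were each lower DEGs, where 10.3% of all genes were. Pax5 among them passed the filter through its ND values alone. The 5 summed to 116 and 114 TPM in ND and to 23.1 and 27.1 TPM in HFD. Their part in the level of Mcoln2 was not tested. Mcoln3 was at 0.2 TPM or less in each library, at most approximately 11 reads.

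The remaining channel and the amino acid transporter did not reach the limits. Tmem175, a potassium and proton channel, lay between 4.1 and 5.7 TPM (0.28 on the log2 scale, limma adjusted p = 0.175), and 2090 of its exon bases overlap Dgkq on the opposite strand, a gene at 2.3 to 2.9 TPM. Slc36a1, which carries small amino acids with protons out of the lysosome, had 28.3 and 29.9 TPM in ND against 21.8 and 20.9 TPM in HFD. Both HFD values were below both ND values, and the log2 fold change of -0.43 (adjusted p = 0.0263 in limma) stayed under 1.5-fold.

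Among the MiT/TFE factors, Mitf rose from a low level, and the shares of the factors differed between the diets. Mitf (chr6:97807052-98021349, plus strand), the factor of melanocytes, osteoclasts and mast cells, had 3.2 and 3.4 TPM in ND against 6.4 and 5.6 TPM in HFD, approximately 282 and 347 reads against 642 and 488. Its log2 fold change was 0.70 (limma, standard error 0.11, adjusted p = 0.0277). The gene has several promoters, and TPM per gene do not separate their transcripts. The call was lost with a pseudocount of 5 (0.41) and without the filter on low values (adjusted p = 0.0531).

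Tfeb (chr17:47737030-47792419, plus strand) had 13.1 and 11.6 TPM in ND against 17.4 and 16.4 TPM in HFD, with a log2 fold change of 0.42 and an adjusted p of 0.0527 in limma. Tfe3 (chrX:7762560-7775202, plus strand) had 19.5 and 20.3 TPM in ND against 17.4 and 15.6 TPM in HFD, with a log2 fold change of -0.26 and an adjusted p of 0.111. Neither was a DEG. The diets did not overlap in either gene, but neither did they in 66.9% of all genes tested. Tfe3 held 56.0 ± 2.15% of the TPM of the 3 factors in ND and 41.9 ± 0.526% in HFD, Tfeb 34.7 ± 2.64% and 42.9 ± 0.979%, and Mitf 9.29 ± 0.490% and 15.2 ± 0.453% (SD, n = 2 each). The sum of the 3 was 35.8 and 35.3 TPM in ND against 41.2 and 37.6 TPM in HFD. Activity of these factors is set largely by their location in the cell, which RNA levels do not show.

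Because these factors bind CACGTG, the promoters of the genes were searched for it. RefSeq promoters of GRCm38.p6, windows of 300 bases that lie mostly before a start, were at hand for 27 of the 34 genes and not for Atp6v0a2, Atp6v0d2, Atp6v1b2, Atp6v1c1, Atp6v1g1, Atp6v1h and Tpcn1. CACGTG reads the same on both strands, and 8 of the 27 genes (29.6%) held it, where 8.09% of all 27025 genes with a promoter did. The longer TCACGTGA, which contains CACGTG, was found in 6 of the 27 (22.2%) and in 1.12% of all genes, and the full palindromic CLEAR consensus in 0 of the 27 and in 0.370% of all. The 8 were Atp6v0b, Atp6v0d1, Atp6v0e, Atp6v1a, Clcn7, Mcoln1, Mcoln2 and Slc36a1. Among them, Atp6v1a and Clcn7 were DEGs, while the DEGs Tcirg1, Atp6v0a1, Atp6v1d, Atp6v1e1, Ostm1, Tpcn2 and Mitf had promoters without these letters. A match is a description of the letters and not of binding. CLEAR elements are known from the promoters of lysosomal genes, so the higher shares here are not a result about the diets. The promoters below are shown for their contrast between motif and change, with CACGTG in capitals. They are those of Atp6v1a and Clcn7, which held it and rose (Clcn7 in the promoter shown and not in its other listed one), Mcoln1, which held it in 2 places and did not pass the test, Slc36a1, which held it in 2 places and had lower values in HFD, and Tcirg1, which rose and did not hold it in this or in its other 2 listed promoters.
Atp6v1a, chr16:44139210-44139509, minus strand: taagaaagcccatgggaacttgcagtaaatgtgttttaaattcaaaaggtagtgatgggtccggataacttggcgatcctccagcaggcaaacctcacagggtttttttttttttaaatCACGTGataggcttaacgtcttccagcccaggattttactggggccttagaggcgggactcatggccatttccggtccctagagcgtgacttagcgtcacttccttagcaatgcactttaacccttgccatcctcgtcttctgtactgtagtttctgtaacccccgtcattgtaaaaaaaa
Clcn7, chr17:25133141-25133440, plus strand: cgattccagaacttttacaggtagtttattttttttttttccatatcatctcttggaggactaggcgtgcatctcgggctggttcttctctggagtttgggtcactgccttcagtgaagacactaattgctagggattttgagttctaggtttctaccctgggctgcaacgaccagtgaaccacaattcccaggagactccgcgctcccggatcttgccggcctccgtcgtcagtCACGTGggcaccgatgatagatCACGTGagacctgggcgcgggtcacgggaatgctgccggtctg
Mcoln1, chr8:3500269-3500568, plus strand: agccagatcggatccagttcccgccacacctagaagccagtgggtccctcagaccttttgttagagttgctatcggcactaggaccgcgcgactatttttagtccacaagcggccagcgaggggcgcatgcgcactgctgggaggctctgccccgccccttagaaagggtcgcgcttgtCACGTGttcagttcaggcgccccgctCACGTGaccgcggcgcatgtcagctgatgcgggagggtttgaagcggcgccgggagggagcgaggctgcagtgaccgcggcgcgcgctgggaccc
Slc36a1, chr11:55204090-55204389, plus strand: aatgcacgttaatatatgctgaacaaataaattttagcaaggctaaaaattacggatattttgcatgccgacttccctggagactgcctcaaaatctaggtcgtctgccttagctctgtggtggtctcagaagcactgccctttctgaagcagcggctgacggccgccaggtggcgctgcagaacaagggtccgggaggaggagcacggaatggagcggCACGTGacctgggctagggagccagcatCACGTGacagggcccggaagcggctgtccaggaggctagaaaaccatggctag
Tcirg1, chr19:3907084-3907383, minus strand: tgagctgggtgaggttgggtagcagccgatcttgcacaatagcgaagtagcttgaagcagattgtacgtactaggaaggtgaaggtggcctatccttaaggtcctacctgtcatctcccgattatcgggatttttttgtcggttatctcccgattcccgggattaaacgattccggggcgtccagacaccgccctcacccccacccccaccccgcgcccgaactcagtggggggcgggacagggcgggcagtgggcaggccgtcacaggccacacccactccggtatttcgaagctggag
In Clcn7 the motifs began 15 bases before and 7 bases after the first base of the transcript, in Mcoln1 71 and 45 bases before it, in Slc36a1 31 and 3 bases before it, and in Atp6v1a 131 bases before it. Among the genes with a promoter at hand, some with and some without the letters rose, and some of each did not. The DEGs Atp6v0d2, Atp6v1b2, Atp6v1c1, Atp6v1g1 and Atp6v1h had no promoter at hand and are left out of this comparison.

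Other genes of the same pathways were taken from lists chosen by function, whose counts stand against 8.08% higher and 10.3% lower DEGs among all genes tested, or 13.2% and 14.1% with the adjusted p-value alone. At an unadjusted p-value under 0.05 these shares were 21.4% and 21.0%. Of 13 tested V-ATPase genes outside the main set, 2 (15.4%) were higher and 1 was lower as DEGs, with a median log2 fold change of 0.37. Wdr7, part of the complex that reassembles V1 with V0, had 6.7 and 7.2 TPM in ND against 16.6 and 15.8 TPM in HFD (1.11), and Tldc1, a TLDc domain gene, rose by 0.83. Rogdi, also tied to assembly, fell from 40.3 and 39.3 TPM to 27.8 and 24.2 TPM (-0.60, adjusted p = 0.0266 in limma). With the adjusted p-value alone, 5 were higher and 1 was lower.

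Of 25 tested transporters and channels of the lysosome or late endosome, 6 (24.0%) were higher as DEGs and 0 were lower in limma. With the adjusted p-value alone 8 were higher and 2 lower, and at an unadjusted p-value under 0.05, 10 were higher and 2 lower. The median log2 fold change was 0.13. The largest were those of Mfsd12, a cysteine importer of lysosomes and melanosomes (2.07, from 61.1 and 60.1 to 275.9 and 241.8 TPM), Slc15a3, a peptide and histidine transporter (1.18), and Npc1, which exports cholesterol (0.93).

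Of 19 tested genes made up of Tfec and regulators of the MiT/TFE factors, 3 (15.8%) were higher and 0 lower as DEGs in limma. With the adjusted p-value alone 7 were higher and 2 lower, and at an unadjusted p-value under 0.05, 9 were higher and 2 lower. The median log2 fold change was 0.27. Fnip2, a partner of folliculin, had 4.9 and 5.1 TPM in ND against 19.9 and 21.3 TPM in HFD (1.85 on the log2 scale, limma adjusted p = 0.00500). Rragd, a Rag GTPase that brings these factors to the lysosome and is itself one of their known targets, had 1.2 and 1.4 TPM in ND against 6.9 and 7.2 TPM in HFD (1.81, adjusted p = 0.00628 in limma). Map4k3, a kinase of the amino acid response, rose by 1.26. Flcn, the gene of folliculin, had 18.7 and 19.4 TPM in ND against 13.7 and 13.6 TPM in HFD (-0.45, adjusted p = 0.0228 in limma), under the fold limit. Tfec, the remaining factor of the family, was at 1.4 to 1.6 TPM in all 4 libraries.

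Among 22 known CLEAR targets outside the main set, 8 (36.4%) were higher as DEGs and 0 lower in limma. With the adjusted p-value alone 13 were higher and 2, Sgsh and Uvrag, were lower, and at an unadjusted p-value under 0.05, 16 were higher and 2 lower. The median log2 fold change was 0.41. The lysosomal enzymes Gusb (1.77), Ctsd (1.76) and Naglu (1.20) changed most, and Ctsd reached 5664.6 and 6344.6 TPM in HFD.

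Osteoclast genes were mixed. Of 9 tested, 4 (44.4%) were higher and 1 was lower as DEGs, and with the adjusted p-value alone 4 were higher and 2 lower. Ctsk, the collagen-degrading protease of osteoclasts, had 6.9 and 7.6 TPM in ND against 442.5 and 474.3 TPM in HFD (5.80), Acp5, the acid phosphatase, rose by 2.81, and Ocstamp, a fusion gene, by 1.16. Mmp9 fell from 191.2 and 190.6 TPM to 5.3 and 4.6 TPM (-5.01). Nfatc1, the main factor of osteoclast formation, had 15.8 and 16.0 TPM in ND against 10.6 and 10.2 TPM in HFD (-0.57, adjusted p = 0.0173 in limma), just under the fold limit. Calcr was listed at 0 and Oscar at 0.1 TPM in each library. These lists were written with earlier results of these data known, and their counts were not tested as sets.

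**Figure D4:**
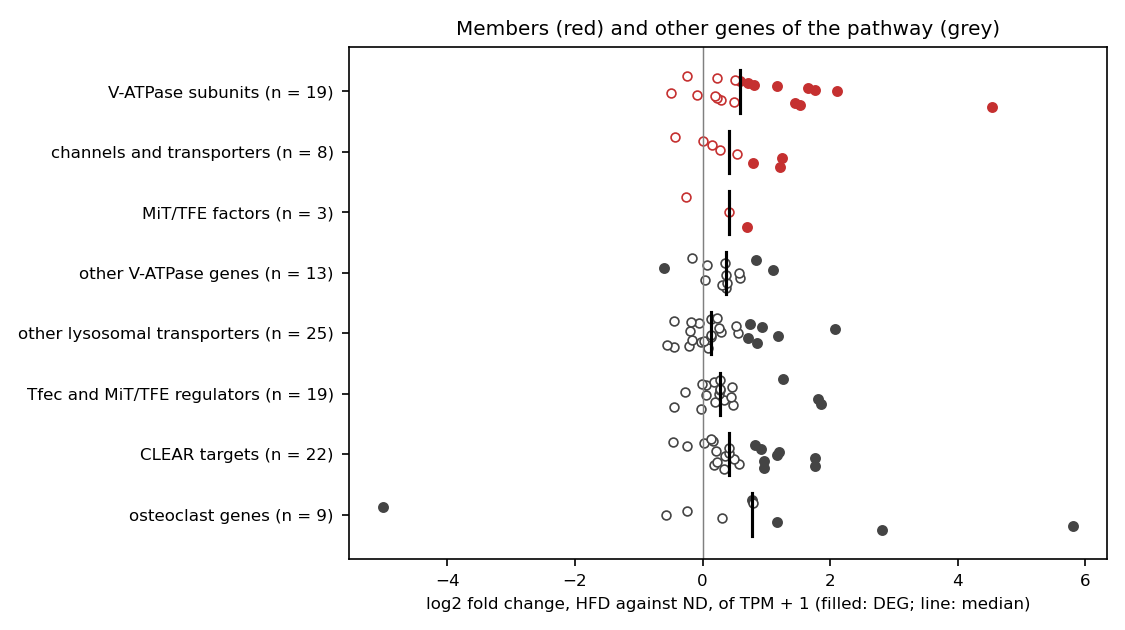
Log2 fold change of TPM + 1, HFD against ND, of each tested gene of the pump, the channels and transporters and the MiT/TFE factors (red) and of 5 lists of related genes (grey). Filled points are DEGs and the black line is the median of a row, from 0.13 for the other lysosomal transporters to 0.78 for the osteoclast genes.

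Markers of cell types moved with the diet as well. The summed level of 11 genes of lipid-associated macrophages was 2912 and 2999 TPM in ND against 13094 and 13830 TPM in HFD, with 10 of the 11 higher as DEGs, where 8.08% of all genes were. The 10 general macrophage genes summed to 19953 and 19361 TPM in ND against 16652 and 17949 TPM in HFD, with log2 fold changes from -0.62 to 0.86. The 8 genes of resident macrophages were all lower as DEGs, as were the 4 T cell and 5 B cell genes tested. Of all genes, 10.3% were lower DEGs. The B cell gene Pax5 passed the filter through its ND values alone. The part of the cell mix in the changes above was not tested. Over the 32 genes tested, the median absolute log2 difference was 0.0681 between the ND libraries and 0.0780 between the HFD libraries, against 0.0875 and 0.158 over all genes tested. The largest difference among the 32 was 0.213 in ND, for Ostm1, and 1.0 in HFD, for Atp6v1b1.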

How the data were processed

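RNA-seq of eWAT CD45+ cells from 2 ND and 2 HFD samples was analysed. Libraries were made with a stranded mRNA kit, and the number of mice per library is not stated. The authors trimmed the reads with Trim Galore 0.4.2 and cutadapt 1.9.1, aligned them to mm10 with STAR 2.6.1e, took out duplicates with Sambamba, assigned reads to genes with featureCounts 1.6.2 and deposited TPM with 1 decimal. The annotation and the strand setting are not given in the sources used here. Tool versions are from the submitters' processing notes. TPM are relative levels within a sample, and the removal of duplicates can lower the values of abundant short genes.

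Files were joined by gene symbol, and log2(TPM + 1) was fitted with limma 3.58.1 (variance trend, Benjamini-Hochberg adjustment) in R 4.3.3 over genes with at least 1 TPM in at least 2 samples. The steps were tested on simulated data. Approximate reads came from the whole-number steps of microRNA values (218 to 260 genes per library) and exon lengths of GENCODE vM21. Replicates differed by 1.4 (ND) and 3.33 (HFD) times their counting error, so each library was kept as 1 sample. Coordinates are from GENCODE vM21 on GRCm38, the assembly called mm10.

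All 34 members were named, and of each related list the DEGs with the 3 largest increases and decreases; other genes of the lists, Tfec, Flcn, Nfatc1, Calcr, Oscar, Sgsh and Uvrag among them, were named after their values were seen. Members and lists were chosen with earlier results of these data known. Alternatives were other pseudocounts, filters, scalings, fold limits and promoter motifs, no variance trend, a replicate block and each sample left out. Plots used Python 3.11.15 and matplotlib 3.10.9.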

Additional observations from a re-analysis of the deposited data

How the results depend on the processing

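The number of the 34 genes called higher in HFD was 14, where 8.08% of all genes were higher, and the share over all genes under each setting stands in parentheses. It was 9 with a fold limit of 2 (4.19%), 12 with a pseudocount of 5 (5.6%) or quantile normalization (6.5%), and 13 without a filter (3.39%), with a mean TPM of at least 5 (10.6%), with median-ratio scaling (6.93%) or with rescaling without the top 50 genes (7.48%). It was 14 without a variance trend (7.82%), 15 with a pseudocount of 0.1 (8.53%) and 21 with no fold limit (13.2%), and with each replicate left out in turn it lay between 0 and 13. The number called lower was 0, was 1 with no fold limit (Slc36a1), and ran from 0 to 1 in the leave-one-out fits. Leaving out an ND replicate leaves 1 ND sample, which is assumed to vary like the HFD pair, and the smallest adjusted p in limma was then 0.161 or 0.167. The number of DEGs over all genes, 3097, was 2015 with a pseudocount of 5, 1604 with a fold limit of 2 and 812 with the replicate block, and ran from 0 to 4227 in the leave-one-out fits. The share of calls that were higher, 43.9%, was 62.7% without HFD replicate 2.

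Both diets have the replicate numbers 1 and 2. With the replicate block, 10 of the 14 genes stayed DEGs, where 2.42% of all genes were higher, and Atp6v1d, Ostm1, Tpcn2 and Mitf were lost. Same-numbered samples did not deviate together (correlation -0.015), so the numbers were not taken as pairs.

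The ratio of HFD to ND was 1.31 for summed V0 and 1.97 for summed V1 after rescaling without the top 50 genes, and 1.93 for V1 after quantile normalization; without 1 replicate it ran from 1.36 to 1.38 and from 2.01 to 2.10. The difference in the d2 share ran from 40.8 to 43.7 percentage points without 1 replicate. The full palindromic CLEAR consensus was found in 0 genes and TCATGTG, a motif chosen after seeing the data, in 2 (7.41%, against 4.31% of all genes), where CACGTG was found in 8. Tpcn1, which was not called, changed direction with median-ratio scaling (-0.022), quantile normalization (-0.123) and rescaling without the top 50 genes (-0.058), and ran from -0.080 to 0.084 without 1 replicate. Atp6v1b1, also not called, ran from -0.27 to 0.73 without 1 replicate. The causes were not tested. Depth limits Mcoln3 and Atp6v1c2, which had at most approximately 11 and 4 reads.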
